A study of Mus musculus with 4 samples.

Results

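A set of 10 immediate-early and stress genes was described by the MED1 regions around them: Ier2, Ier3, Ier5, Btg1, Btg2, Gadd45a, Gadd45b, Ppp1r15a, Csrnp1 and Myc. They were chosen by name, and they are 10 of the 21883 protein-coding genes placed by RefSeq (assembly GRCm38.p6, which is mm10) on chromosomes 1 to 19, X and Y. MED1 is a subunit of Mediator, the complex that carries signals from transcription factors to RNA polymerase II. Its binding was profiled by ChIP-seq in RAW 264.7, a mouse macrophage-like cell line, either untreated (2 libraries) or after 2 h with LPS, a bacterial endotoxin (2 libraries). The LPS dose is 10 ng/mL in the sample labels and 100 ng/mL in the treatment protocol. The deposited values are a single list of genomic intervals for the series as a whole. It names neither library nor condition and holds no height. Which of the 4 libraries it was made from is not given, so resting and stimulated cells cannot be told apart in any value below. Read depth is unknown, and no spread between libraries can be given.

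These genes belong to the first wave of transcripts that cells make after a growth signal, an inflammatory signal or damage. Most are short genes that are induced within minutes to hours without new protein synthesis, and many of their products slow the cell cycle, adjust survival or end the response. LPS is known to induce several of them in macrophages through NF-kB, MAP kinase and serum response factor pathways.

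Joining of abutting intervals gave 22570 regions with a median width of 1948 bp. A region was counted for a gene when it overlapped the gene or had its midpoint no more than 50 kb from one of its ends. Marker genes of the labelled cell type and of others were also examined, in lists chosen with earlier results of these data known. All 8 macrophage marker genes were overlapped by a region, with a median of 7 regions per gene. Of 14 markers of T cells, B cells, granulocytes, hepatocytes, muscle and neurons, 6 had a region and 1 was overlapped (Cd3d), and their median was 0. Over all protein-coding genes, 70.6% had a region, 50.6% were overlapped by one and the median was 2.

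All 10 genes had MED1 regions, between 3 at Myc and 12 at Ier5, and each gene was itself overlapped by at least 1. Together they had 65 regions, none shared between genes, of which 11 overlapped a gene of the set and 54 lay beside it. Among all protein-coding genes, 70.6% had a region by this rule and 50.6% were overlapped by one. The median was 6 regions per gene in the set and 2 over all protein-coding genes. Shares were similar within the length range of the set. Of the 7647 protein-coding genes between 1199 and 13580 bp, 71.0% had a region and 45.2% were overlapped by one, and their median was also 2. The upper end of this range is Csrnp1 alone. The next longest gene, Btg1, has 5813 bp, and the median length in the set is 3311 bp, so lengths were not closely matched. The genes were picked with earlier results of these data known, so these shares are a description and were not tested.

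Ier5 stood highest in the set, with a count that 0.731% of all protein-coding genes reached. Ier3 followed with 9 regions, a count reached by 4.2%. Csrnp1 and Ppp1r15a had 7 each (10.8%), of which 2 and 1 had them as the nearest protein-coding gene. Ier2, Btg2 and Gadd45b had 6 each (17.2%), Gadd45a had 5 (25.2%) and Btg1 had 4 (34.8%). Myc, with 3, had a count reached by 46.1% of genes, close to the middle of the distribution.

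Regions covered much of these gene bodies. Of the 10 genes, 6 lay from end to end inside a single region: Ier2, Ier3, Ier5, Gadd45b, Ppp1r15a and Csrnp1. Over all protein-coding genes this was the case for 1.55%, and for 3.3% of those in the length range of the set. The others were covered over 97.5% (Btg2), 87.1% (Gadd45a), 84.0% (Btg1) and 58.7% (Myc) of their length. Among protein-coding genes overlapped by a region, the median gene was covered over 8.13% of its length, or 21.9% within the length range. That range reaches 13580 bp through Csrnp1 alone, and longer genes are less easily enclosed. The widest region over each gene was 6581.5 bp in the median, while it was 2359 bp for all overlapped protein-coding genes. In contrast, the 54 regions that lay beside the genes had a median width of 2179 bp, near the 1948 bp of all regions.

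The promoter table gives a strand and a start for 8 of the genes, not for Ier2 and Myc. All 8 annotated starts lay inside a region, compared with 39.8% of the 17491 protein-coding genes that have a strand and 40.2% of those in the length range. The 47 neighbouring regions of these 8 genes were spread over both sides, 25 upstream and 22 downstream, with large differences between genes that are visible in the map of regions.

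**Figure D1:**
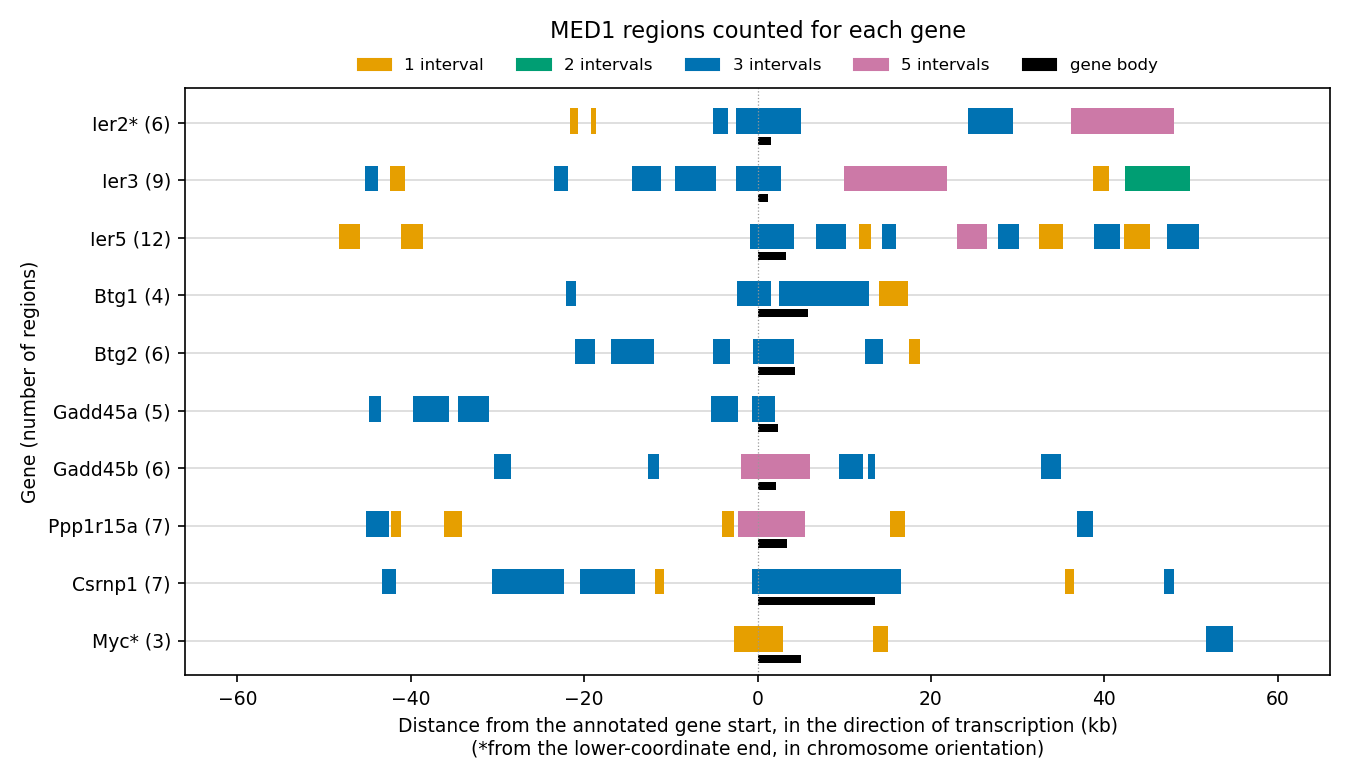
Each row is a gene, with its body in black below the line and its MED1 regions above, coloured by the number of deposited intervals they contain; the horizontal axis is the distance in kb from the annotated start in the direction of transcription (from the lower-coordinate end for Ier2 and Myc). Each gene has a region over its body, Ier5 has 9 of its regions downstream, and Gadd45a has 4 upstream and none downstream.

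Promoter sequences show what lay under these regions. For the 8 genes, 11 windows of 250 bases before an annotated start were matched in RefSeq (GRCm38.p6), 4 of them for Csrnp1, and all 11 lay entirely inside a MED1 region. The 5 below were chosen because they hold motifs for stress, inflammatory or core promoter factors. Each is written 5′ to 3′ on the strand of the gene, ends 1 base before the start and has in capitals the matches, on either strand, to the motifs of CREB and ATF factors and of NF-kB (the kappaB motif), the CCAAT box, the TATA box and the E-box. Apart from the kappaB motif, which is given by name, their letters follow the sequences.
Btg2 (chr1:134079156-134079405, minus strand): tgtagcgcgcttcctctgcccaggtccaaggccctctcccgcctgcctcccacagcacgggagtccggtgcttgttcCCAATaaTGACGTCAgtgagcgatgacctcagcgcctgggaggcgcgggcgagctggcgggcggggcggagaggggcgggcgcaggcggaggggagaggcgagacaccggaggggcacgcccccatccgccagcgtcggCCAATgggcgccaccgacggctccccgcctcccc
Ppp1r15a (chr7:45526269-45526518, minus strand): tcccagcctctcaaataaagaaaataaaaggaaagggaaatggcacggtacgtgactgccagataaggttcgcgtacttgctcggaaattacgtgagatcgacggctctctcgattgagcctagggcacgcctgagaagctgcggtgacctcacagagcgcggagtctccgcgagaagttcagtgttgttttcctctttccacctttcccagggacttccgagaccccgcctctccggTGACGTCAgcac
Btg1 (chr10:96616751-96617000, plus strand): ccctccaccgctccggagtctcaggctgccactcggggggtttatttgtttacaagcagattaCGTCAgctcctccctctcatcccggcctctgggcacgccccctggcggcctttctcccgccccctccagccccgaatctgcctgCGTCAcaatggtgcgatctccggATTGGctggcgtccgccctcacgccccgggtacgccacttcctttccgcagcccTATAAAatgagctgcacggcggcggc
Ier3 (chr17:35821463-35821712, plus strand): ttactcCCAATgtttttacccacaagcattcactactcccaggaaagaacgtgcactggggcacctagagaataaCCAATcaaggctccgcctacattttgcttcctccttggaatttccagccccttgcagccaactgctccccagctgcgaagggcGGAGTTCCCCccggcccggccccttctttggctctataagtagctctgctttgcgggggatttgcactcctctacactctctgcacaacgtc
Gadd45b (chr10:80929841-80930090, plus strand): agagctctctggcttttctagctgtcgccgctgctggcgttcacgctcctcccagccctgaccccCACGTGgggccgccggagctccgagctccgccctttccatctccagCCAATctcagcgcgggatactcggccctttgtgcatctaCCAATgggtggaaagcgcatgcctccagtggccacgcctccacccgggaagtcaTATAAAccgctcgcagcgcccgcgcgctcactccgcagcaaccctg

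The palindrome TGACGTCA, the cyclic AMP response element bound by CREB and ATF factors, occurred in 2 of the 8 genes. It lay 166 to 159 bases before the start of Btg2 and 12 to 5 bases before that of Ppp1r15a, and it is found in 1.55% of all 32851 promoter windows of this length. Its core (TGACG), which each full element contains on both strands, was found in 4 genes (those 2, Btg1 and Csrnp1), in 17.8% of all windows and in 20.2% of those of protein-coding genes. Of the 8 genes, Ier3 alone had a kappaB motif, 92 to 83 bases before its start (3.9% of all windows). Gadd45b alone had an E-box, CACGTG (6.02%), and Csrnp1 alone the AP-1 motif TGANTCA (6.75%). The TATA box in the exact letters TATAAA was present in Btg1 and Gadd45b (12.4%), 26 to 21 and 46 to 41 bases before the start. Variants of this box were not searched. The CCAAT box (CCAAT) occurred in 33.8% of all windows and 35.4% of those of protein-coding genes. The GC box (GGGCGG), which is not marked above, occurred in 32.7% and 42.6%. Each was found in 7 of the 8 genes, all but Ppp1r15a. These shares are per window, whereas a gene counts once if any of its windows holds the motif, and Csrnp1 has 4. No window of these genes held the CArG box of serum response factor (1.47%), the EGR motif GCGTGGGCG (0.536%) or the composite CHOP and ATF4 motif TGATGCAAT (0.167%). The window of Ppp1r15a also reaches into Plekha4, which lies 0.061 kb from Ppp1r15a on the side of the start. Matches of letters were not tested for binding.

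The IER genes encode small, rapidly induced proteins. Ier2 and Ier5 are related nuclear proteins, and Ier3, also called IEX-1, modulates cell survival and NF-kB signalling. Ier2 (chr8:84661331-84662852) lay within a region of 7521 bp that extended 2473 bp beyond its lower-coordinate end and 3526 bp beyond the other. A second region of 1732 bp began on the lower-coordinate side 3.45 kb away. Its other 4 regions lay 18.6 to 34.6 kb away and nearer to other genes, the largest being 11906 bp wide and overlapping Trmt1, Lyl1 and Nfix. Only 2 of its 6 regions therefore had Ier2 as the nearest protein-coding gene.

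Ier5 (chr1:155096367-155099636, minus strand) differed from Ier2 in this respect, since 10 of its 12 regions had it as the nearest protein-coding gene. Its body lay within a region of 5102 bp that reached 865 bp upstream and 967 bp downstream. A row of 9 regions followed downstream, 3.51 to 43.9 kb from the gene and 1279 to 3691 bp wide, over a stretch with no protein-coding gene that holds the non-coding genes Gm9530, Gm51651 and Gm41980. The remaining 2 regions lay upstream over Mr1, 38.6 and 45.9 kb away. Single-interval regions made up 5 of the 12, and without them its count was 7.

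Ier3 (chr17:35821713-35822911, plus strand), the shortest of the genes, lay within a region of 5193 bp that reached 2477 bp upstream and also overlapped Flot1, which lies 0.408 kb from Ier3. Of its 9 regions, 5 lay upstream, 4.84 to 43.8 kb away in a stretch with no protein-coding gene, and their widths were 4731, 3318, 1641, 1713 and 1443 bp from the nearest to the farthest. The 3 downstream regions overlapped Flot1, Tubb5 and Mdc1 (11934 bp), Nrm (1886 bp) and Nrm with Ppp1r18 (7506 bp), so the widest region counted for Ier3 was one over its neighbours.

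Btg1 and Btg2 are paralogs of the BTG/TOB family, which restrain proliferation and recruit the CCR4-NOT deadenylase to messenger RNA. Their gene bodies were covered in different ways. Btg1 (chr10:96617001-96622813, plus strand) was the only gene of the set overlapped by 2 regions. The first, 3839 bp wide, covered the start and reached 2332 bp upstream. The second, of 10412 bp, covered the rest of the gene except for a gap of 931 bp inside it and ran 7037 bp past the gene end, and 2.02% of all regions were at least as wide. Only 2 further regions were counted, 21.0 kb upstream (1095 bp) and 8.13 kb downstream (3421 bp), and no other protein-coding gene lay within 50 kb. Btg2 (chr1:134074865-134079155, minus strand) had a single region of 4754 bp that began 572 bp upstream and stopped 109 bp short of the gene end. It had 5 more, 3 upstream (3.2, 12.0 and 18.8 kb away; 1916, 5014 and 2234 bp wide) and 2 downstream (8.09 and 13.2 kb away; 2090 and 1241 bp wide). All 6 lay outside other protein-coding genes.

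Gadd45a and Gadd45b encode small stress sensors that bind the kinase MAP3K4 and the replication clamp PCNA. Gadd45a is a known p53 target, and Gadd45b is known as an NF-kB target. Gadd45a (chr6:67035096-67037407, minus strand) had the narrowest gene region of the set, 2634 bp, which 31.7% of all regions equalled or exceeded. It covered the start by 621 bp and left the last 299 bp of the gene uncovered. The other 4 regions of Gadd45a all lay upstream. One of 3203 bp was 2.22 kb away, and those of 3508, 4166 and 1386 bp were 31.0, 35.6 and 43.4 kb away. All but the last overlapped the long non-coding gene E230016M11Rik. Gadd45b (chr10:80930091-80932204, plus strand) lay within a wider region, of 7968 bp, which reached 1966 bp upstream and 3888 bp downstream. It was flanked by 2 regions upstream, both overlapping Lmnb2, and 3 downstream, the nearest of them 7.32 kb away. Only the gene region itself had Gadd45b as the nearest protein-coding gene, whereas all 5 regions of Gadd45a had Gadd45a.

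Ppp1r15a, also called GADD34, encodes the stress-induced regulatory subunit that directs protein phosphatase 1 to the translation initiation factor eIF2 and so restores protein synthesis. The gene (chr7:45522917-45526268, minus strand) lay within a region of 7750 bp that reached 2239 bp upstream and 2159 bp downstream. It shares this stretch with other genes. Tulp2 overlaps it, Plekha4 lies 0.061 kb away, and the region overlapped both, so it cannot be told apart which of them the signal belongs to. The other 6 regions were 1157 to 2646 bp wide and all nearer to other protein-coding genes. Single-interval regions made up 4 of the 7, and the count was 3 without them.

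Csrnp1, which encodes a nuclear protein rich in cysteine and serine that is induced by immediate-early signals, had the widest region. The gene (chr9:119971163-119984742, minus strand), the longest of the set, lay within 17231 bp that began 704 bp upstream and ended 2947 bp past the gene, in Ttc21a. Only 0.483% of all regions were as wide, and 1.14% of overlapped protein-coding genes had as wide a region over them. Upstream of Csrnp1 lay 4 regions at 10.8 to 41.7 kb, of 1029, 6326, 8321 and 1560 bp in order of distance, with 2 narrow ones downstream over Ttc21a (1065 and 1136 bp). Of the 7 regions, 5 were nearer to Xirp1, Ttc21a or Gorasp1 than to Csrnp1.

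Myc encodes a basic helix-loop-helix factor that drives growth and is itself an early target of growth signals. Its region of 5642 bp left more of the gene uncovered than those of the other 9 genes. It covered 2947 of the 5021 bp of the gene (chr15:61985341-61990361), from 2695 bp outside the lower-coordinate end, and left the last 2074 bp uncovered. It was also the only region over a gene of the set made of a single deposited interval. At that width it was unusual for its kind, since 116 of 7957 single-interval regions (1.46%) were at least as wide. Among overlapped protein-coding genes, 14.7% were overlapped by single-interval regions alone. The other 2 regions of Myc lay 8.28 kb (1781 bp) and 46.7 kb (3098 bp) beyond its higher-coordinate end, the latter at the edge of Pvt1, the long non-coding gene downstream of Myc.

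Myc lies in a stretch poor in protein-coding genes, with A1bg 1060 kb away on one side and Gsdmc 1790 kb away on the other. Apart from the region over Myc itself, which reached 2695 bp into the gap towards A1bg, the regions in this stretch were all on the other side. The gap towards Gsdmc held 20, 8 of them overlapping Pvt1 (chr15:62037986-62260215). The widest lay around the far end of Pvt1, where a region of 13181 bp had its midpoint 272 kb from Myc, and beyond it, where a region of 11876 bp followed at 334 kb. The last of a dense series lay at 463 kb, and 1 isolated region of 744 bp at 1630 kb. Of the 712 gaps of at least 500 kb between neighbouring protein-coding genes, 4 (0.562%) held the midpoints of 20 regions or more and 462 (64.9%) held none. These counts were not adjusted for gap length, and the gap towards Gsdmc, at 1790 kb, is well above the minimum. The minimum of 500 kb was set after these values were seen.

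**Figure D2:**
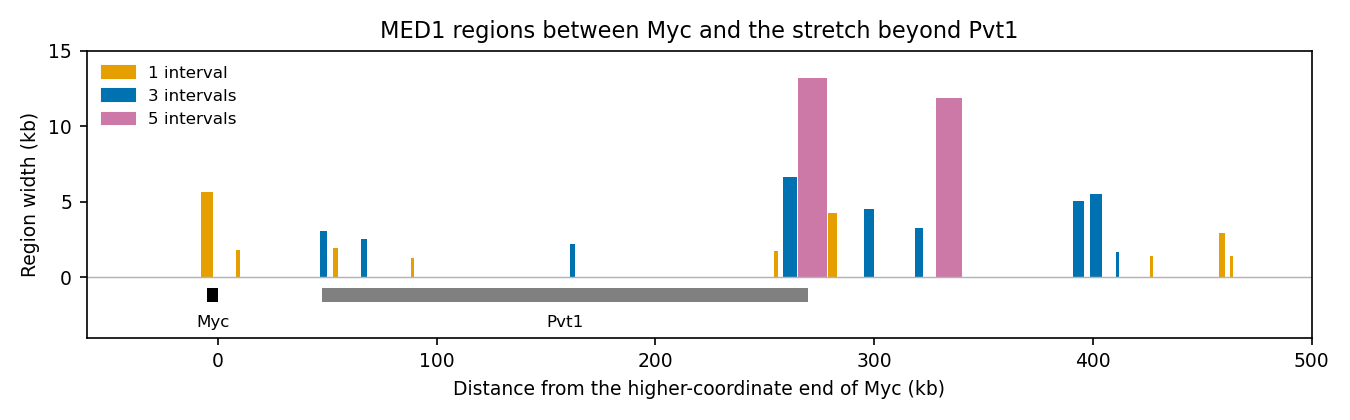
Regions on the higher-coordinate side of Myc, with distance from the end of Myc in kb on the horizontal axis and region width in kb on the vertical axis; colours give the number of intervals, and Myc and Pvt1 are drawn below the zero line. The widest regions, of 13181 and 11876 bp, lie at and beyond the far end of Pvt1, and the region over Myc is a single interval of 5642 bp; the isolated region at 1630 kb is outside the axis.

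The joined regions retained the partition of the deposited list, which adds detail to the gene regions. Of the 65 regions, 40 contained 3 intervals (61.5%, against 60.4% of all regions), 19 contained 1 (29.2%, against 35.3%), 5 contained 5 (7.69%, against 3.29%) and 1 contained 2. In 35 of the 40 regions of 3 intervals (87.5%) the middle interval was the widest, as in 92.4% of all such regions. The 5 exceptions were 3 regions of Csrnp1 and 1 each of Gadd45a and Gadd45b. The gene region of Csrnp1 was the most uneven: an interval of 878 bp at the upstream edge held the outermost annotated start, a middle interval of 3840 bp held the other 3 starts, and one of 12513 bp covered the rest of the gene. At Ier2, Ier3, Ier5 and Gadd45a the middle interval was 6835, 4097, 4620 and 2341 bp wide, and the flanks were 32 to 647 bp. Gadd45b and Ppp1r15a each had 5 intervals over the gene, with 2 wide ones (2792 and 4071 bp, and 2833 and 2798 bp) either side of a short one (387 and 344 bp). What the partition stands for is not given in the sources used here.

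**Figure D3:**
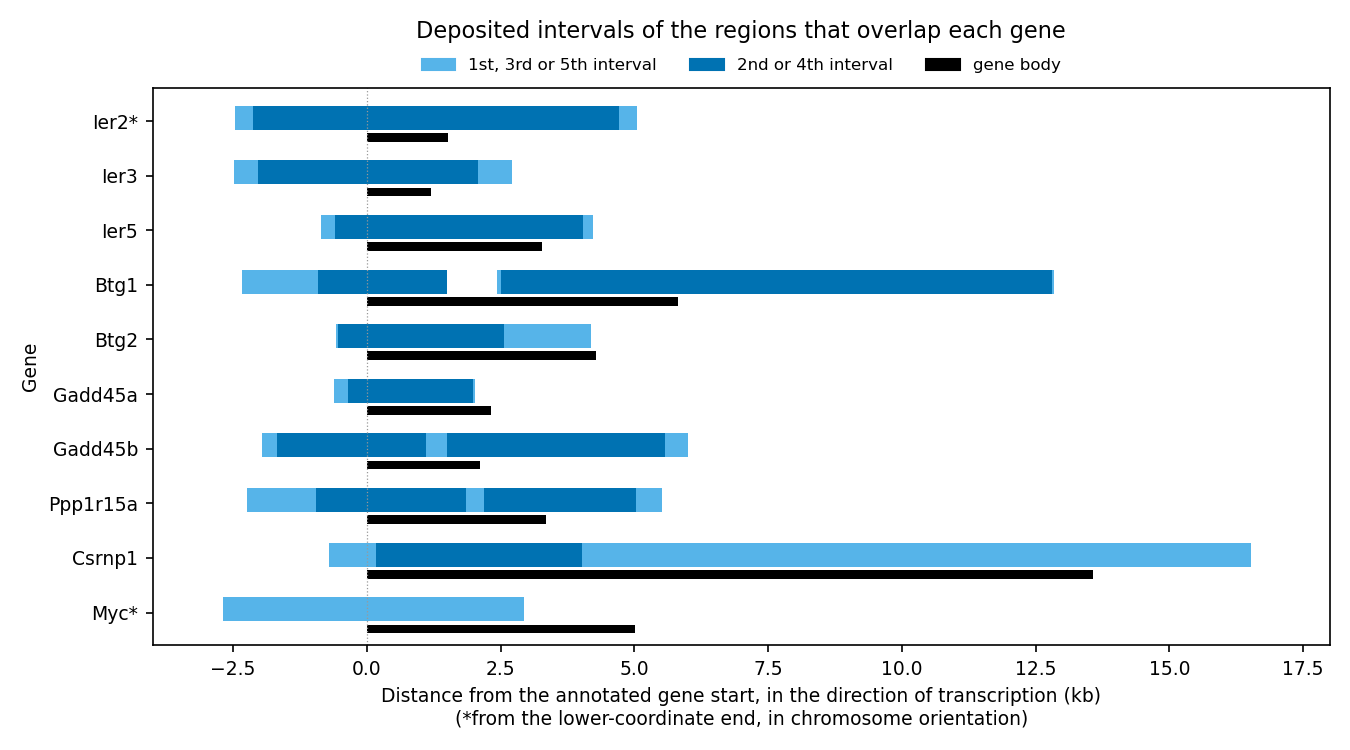
Deposited intervals, in alternating shades, of the regions that overlap each gene, with the gene body in black; the horizontal axis is the distance in kb from the annotated start in the direction of transcription (from the lower-coordinate end for Ier2 and Myc). The middle interval spans most of the region at Ier2, Ier3 and Ier5, the widest interval at Csrnp1 is a flank of 12513 bp, and Myc has 1 interval.

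Regions separated by 12.5 kb or less were also merged into clusters, as is done to find super-enhancers, and 5 of the 10 genes were overlapped by one of the largest 5% (677 of 13554 clusters, ranked by covered length). Over all protein-coding genes the share was 5.39%. The cluster of Csrnp1 ranked 11, with 11 regions that covered 66871 bp and ran from 119968216 to 120071936 on chromosome 9, past Xirp1. Of this length, 17231 bp lay in the region over Csrnp1. The cluster extends beyond 50 kb from the gene, and its regions of 6326 and 8321 bp are nearer to Xirp1 than to Csrnp1. Ier5 ranked 141 (10 regions, 29743 bp), Ier3 ranked 182 (5 regions, 26817 bp), Btg1 ranked 464 (3 regions, 17672 bp) and Btg2 ranked 481 (6 regions, 17249 bp). The cluster of Ier3 includes the region of 11934 bp over Flot1, Tubb5 and Mdc1, which is nearer to Tubb5 than to Ier3. Just outside the limit of 14429 bp lay Gadd45b at rank 830 with 12772 bp. Ppp1r15a (rank 1083), Ier2 (1426), Myc (1941) and Gadd45a (2659) had clusters of 2 or 3 regions. The paralogs Btg1 and Btg2 thus had similar covered lengths in clusters of 3 and 6 regions, while Ier5 had 29743 bp and Ier2 had 9253 bp.

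Relatives of the same gene families had a lower median count than the set, equal to that of all protein-coding genes. Of 11 such genes, 9 had a region and 7 were overlapped, with a median of 2 regions per gene. Over all protein-coding genes, 70.6% had a region and 50.6% were overlapped by one. Gadd45g, the third GADD45 gene, and Mycn lay wholly inside a region (4948 and 9009 bp). Ier5l and Tob2 had the most regions, 6 each, followed by Mycl with 5, against 3 at Myc. None of those 5 overlapped Mycl. Btg3 and Csrnp3 had none. In contrast, all 23 partner and stress pathway genes were overlapped by a region, with a median of 4. Sesn2, a p53-induced regulator of growth, and Mxi1, an antagonist of Myc, had 12 each, and Ddit3, the stress factor CHOP, had 9 and lay within a region of 9448 bp. Only 2 of these 23 genes, Ddit3 and the kinase gene Plk2, lay wholly inside a region, against 6 of the 10 in the set. The lists were not matched for gene length, and longer genes are less easily enclosed. Partner genes were up to 91176 bp long (Map3k4), whereas the longest gene of the set has 13580 bp.

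Genes of other immediate-early families also had regions over them, though some were covered over little of their length (3.45% at Dusp8). Over all protein-coding genes, 50.6% were overlapped by a region and the median was 2 regions per gene. All 7 EGR and KLF genes, 10 AP-1 and ATF genes and 7 DUSP genes examined were overlapped by a region, with medians of 4, 5 and 3. Genes wholly inside 1 region numbered 3, 5 and 2. The median width of the widest region over the gene was 4464, 7436 and 6824 bp, which brackets the 6581.5 bp of the set. Counts overlapped in all these lists, from 2 at Klf4 and Jun to 11 at Fosb, so full coverage and high counts were found outside the 10 genes too. No differences between lists were tested.

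**Figure D4:**
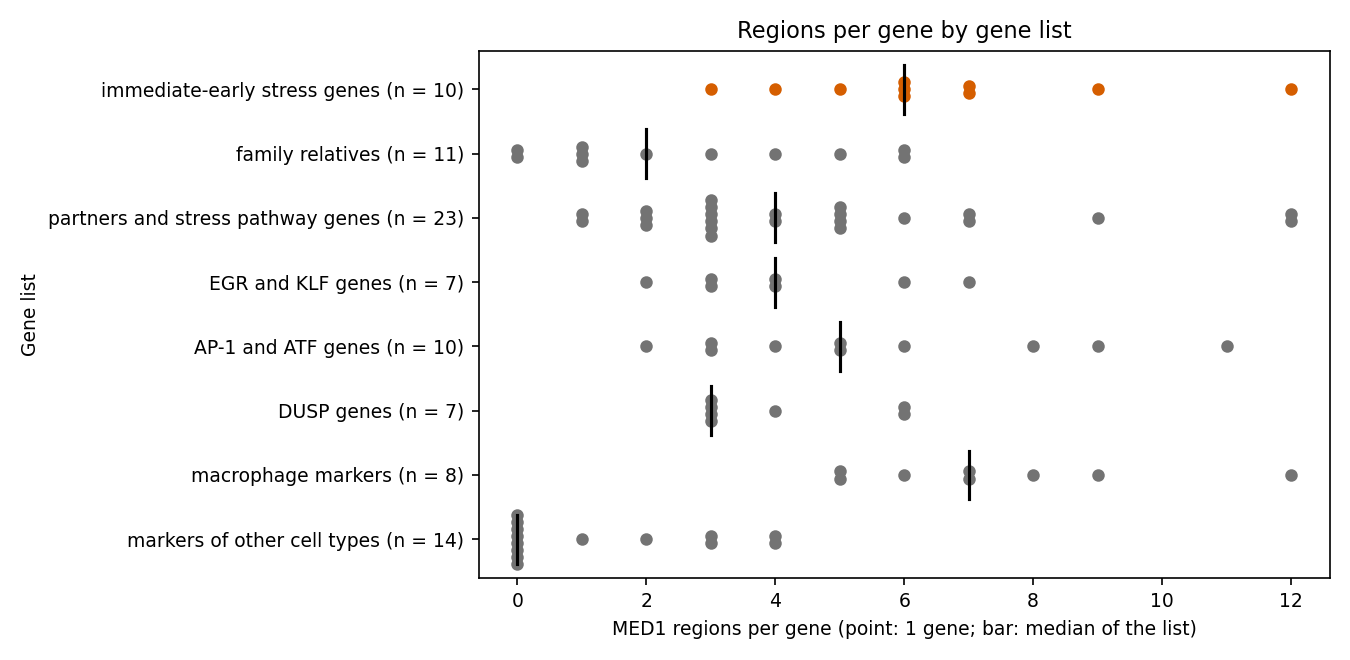
MED1 regions per gene (horizontal axis) for each gene list (rows); a point is a gene and the vertical bar is the median of the list. The set has a median of 6, the other early response families 3 to 5, macrophage markers 7 and markers of other cell types 0.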

How the data were processed

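The study made MED1 ChIP-seq libraries of RAW 264.7 cells (2 untreated, 2 with LPS), and a single interval list was analysed. Bowtie, SAMtools and MACS2 2.2.6 and the build mm10 are named in the submitters' processing notes; for peak settings, controls and pooling the sources used here give nothing. Each of the 53764 deposited lines has a score of 0, which was not used. The 4 mitochondrial intervals were left out.

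Abutting intervals were joined, and regions were counted per gene from RefSeq gene positions (GRCm38.p6), with strand and start from the RefSeq promoter table. Coordinates are 1-based. The members and all lists were chosen with earlier results of these data known; end-to-end coverage, clusters and long gaps were added after values were seen, and no test was made. From other lists, up to 3 genes with the most regions and up to 3 with none were eligible to be named; the other list genes named were chosen after their values were seen. Untreated and stimulated cells could not be compared, because intervals carry no library. Counting was tested on simulated data. Python 3.11.15, numpy 2.4.6, pandas 2.3.3 and matplotlib 3.10.9 were used.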

Additional observations from a re-analysis of the deposited data

How the results depend on the processing

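All 10 genes had a region under each of the alternatives tried. These were unjoined intervals, joining within 500 bp, windows of 10 and 100 kb, any overlap and midpoints alone. Regions of 1 interval, narrow regions or regions nearer to another gene were also left out in turn. Because each gene is itself overlapped by a region, unjoined intervals, wider joining, other windows and any overlap could not lower this count. All 10 stayed overlapped by a region except without regions of 1 interval, where 9 were (Myc was not), and the 8 known starts stayed covered. Under these alternatives, 49.9% to 77.1% of all protein-coding genes had a region and 32.0% to 50.6% were overlapped by one. The start was covered in 24.9% to 40.2% of those with a strand. The number of regions followed the definition. The median per gene and the number of distinct regions were 16 and 166 for unjoined intervals, 2 and 22 within 10 kb, 9.5 and 101 within 100 kb, 3 and 40 without regions under the median width of all regions, and 3.5 and 38 when only regions nearest to the gene were counted, where the median over all protein-coding genes was 5, 1, 4, 1 and 0. Without regions nearer to another gene, the counts of 4 genes (Ier2, Gadd45b, Ppp1r15a and Csrnp1) changed by more than 1.5 times. Without regions of 1 interval, those of Ier5, Ppp1r15a and Myc did. No paired analysis was possible because the intervals carry no library. Depth and heights are unknown, so weak and strong regions count alike.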

Other observations

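Btg1, with only 4 regions inside its window, lay at the edge of a long stretch without other protein-coding genes that held a series of MED1 regions. The gap between Eea1 and Btg1 (chr10:96045519-96617000) measured 571 kb and held the midpoints of 25 regions, 1 of them the region over the start of Btg1. They covered 111196 bp with a median width of 3115 bp. The widest, of 21234 bp and 5 intervals, overlapped the non-coding gene Gm33782 with its midpoint 284 kb upstream of Btg1, and a region of 10403 bp lay 353 kb upstream. Of the 25 regions, 17 had 3 intervals and 6 had 1. Among 712 gaps of at least 500 kb between neighbouring protein-coding genes, compared without regard to length, 3 (0.421%) held at least as many, and the median was 0. Which gene these regions act on was not tested.

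Around Ppp1r15a the opposite layout was seen, with 6 other protein-coding genes within 50 kb and a single region between its nearest neighbours. Ier2 and Ier3 each had 5 other protein-coding genes within 50 kb, Gadd45b and Csrnp1 had 4, Btg2 had 2, Ier5 and Gadd45a had 1, and Btg1 and Myc had none.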
